A study of Mus musculus with 6 samples.

Results

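The genes described here encode 10 secreted growth, angiogenic and repair factors that macrophages are known to make: Igf1, Vegfa, Vegfb, Vegfc, Pdgfa, Pdgfb, Pdgfc, Hbegf, Tgfb1 and Tgfbi. They were picked by symbol from the 55487 genes of a count table, and each symbol matched 1 gene. Of them, 9 had enough counts to be tested between groups, among 13140 genes tested in all. The data came from bulk RNA sequencing of macrophages that were grown in culture for 7 days from sorted mouse bone marrow cells. The starting cells were either the population that the labels call TpMos or mature Ly6Chi monocytes, and each of these 2 groups, TpMo-derived and Ly6Chi-derived macrophages, was represented by 3 libraries. The culture medium held CSF-1, the growth factor that keeps macrophages alive. The sources used here do not give the CSF-1 concentration of each sample, the strain, age and genotype of the mice, or the number of mice behind each library. Replicate numbers follow accession order only.

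Growth factors of these families act on neighbouring cells through receptor tyrosine or serine/threonine kinases. In repairing tissue, macrophages supply IGF1 to muscle and epithelium, VEGF ligands to endothelium, and PDGF and TGF-beta ligands to fibroblasts and pericytes. Several of the proteins are regulated after transcription: HB-EGF must be cut from the membrane, TGF-beta 1 is secreted in a latent form, and IGF1 is held by binding proteins. The transcript levels given here do not cover those steps.

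The libraries held 23765773 to 33042094 counts, and the ranges of the 2 groups overlapped. The TMM scaling factors, which set libraries on a common scale, did not overlap: the TpMo-derived libraries had 0.970 to 0.993, and the Ly6Chi-derived ones 1.01 to 1.03. Levels are given as CPM, a gene's counts divided by its library's TMM-scaled total and put on the usual common depth. The mitochondrial share of counts was also apart, at 1.45 to 1.51% against 1.201 to 1.35%, and its part in the results was not tested. All 8 macrophage markers (Adgre1, Csf1r, Cd68, Mertk, Fcgr1, Itgam, Lyz2 and Spi1) were detected, with summed levels from 35140 to 37721 CPM in TpMo-derived and from 28963 to 32019 CPM in Ly6Chi-derived libraries. Most of that sum was Lyz2, and single markers differed more: Fcgr1 (335 against 86.2 CPM), Adgre1 (4015 against 1751 CPM) and Csf1r, the CSF-1 receptor (3017 against 2119 CPM), rose, and Itgam (144 against 177 CPM) fell, with adjusted p from 3.53e-06 to 0.0382 (edgeR). The other 4 did not pass. Of 8 fibroblast and stromal markers, 7 were at 0 counts, among them Col1a1, Col1a2, Pdgfra and Pdgfrb, and the exception was Pdpn.

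None of the 9 tested factors differed between the groups at an adjusted p under 0.05, neither higher nor lower (edgeR quasi-likelihood test, Benjamini-Hochberg adjustment over all genes tested). Over all genes tested, 12.3% passed that threshold. At an unadjusted p under 0.05 the count was 1 of 9, Igf1, where 24.4% of all genes passed. The DESeq2 Wald test and limma-voom each called 1 of the 9, Igf1, where they called 16.1% and 13.3% of all genes. A filter of at least 5 CPM in 3 libraries left 4 of the 9 and called 1, Igf1, at 19.5% of all genes. With no filter 0 members passed, at 8.61% of all genes. The 3 TpMo-derived libraries all lay above the 3 Ly6Chi-derived libraries for 3 factors, Igf1, Pdgfb and Vegfa, and all below them for 0. Such a separation, in either direction, was seen for 30.5% of all genes tested. The log2 fold change (TpMo-derived over Ly6Chi-derived, so that positive means higher in TpMo-derived macrophages) was above 0 for 6 factors and below 0 for 3. Its median was 0.30, beside 0.01 over all genes tested. In bulk RNA, fewer cells that make a transcript and less transcript per cell cannot be told apart.

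**Figure D1:**
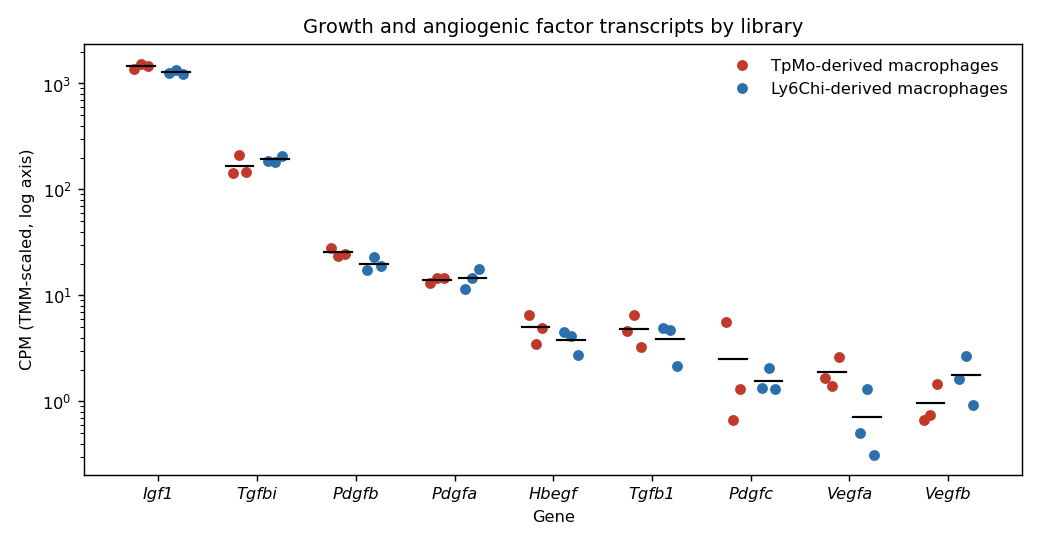
Level of each of the 9 tested factors in every library, in CPM after TMM scaling on a log axis. Points are libraries (red, 3 TpMo-derived; blue, 3 Ly6Chi-derived) and black lines are group means; the points of the 2 groups are apart for Igf1, Pdgfb and Vegfa and overlap for the other 6.

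IGF1, a ligand that promotes growth and survival and is a known product of CSF-1-dependent macrophages, was the most abundant transcript of the set per kilobase of exon, by a wide margin. Igf1 (ENSMUSG00000020053.18, GRCm38 chromosome 10, 87858265 to 87937042) stood at 1378, 1541 and 1470 CPM in TpMo-derived libraries and at 1245, 1352 and 1234 CPM in Ly6Chi-derived libraries. All TpMo-derived values were thus above all Ly6Chi-derived ones, by little: the lowest TpMo-derived and the highest Ly6Chi-derived library were 1378 and 1352 CPM. The group means were 1463 ± 81.6 CPM and 1277 ± 65.6 CPM (SD, n = 3), which was 1.15-fold, or 0.20 ± 0.06 (SE) as a log2 fold change. The 95% interval of that fold was 1.04 to 1.26 before any adjustment for the number of genes tested. The adjusted p was 0.0651 by the edgeR quasi-likelihood test, just outside the threshold. It lay inside with DESeq2 (adjusted p = 0.0339), with limma-voom (adjusted p = 0.0364) and when genes had to reach 5 CPM in 3 libraries (adjusted p = 0.0377), and was 0.161 by edgeR when libraries were scaled by their totals alone, where the log2 fold change was 0.15. No fit with a library left out called it (edgeR, adjusted p from 0.0501 to 0.215). Over all 15 alternatives 3 called it and the log2 fold change ranged from 0.15 to 0.24, so the direction held while the call did not.

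**Figure D2:**
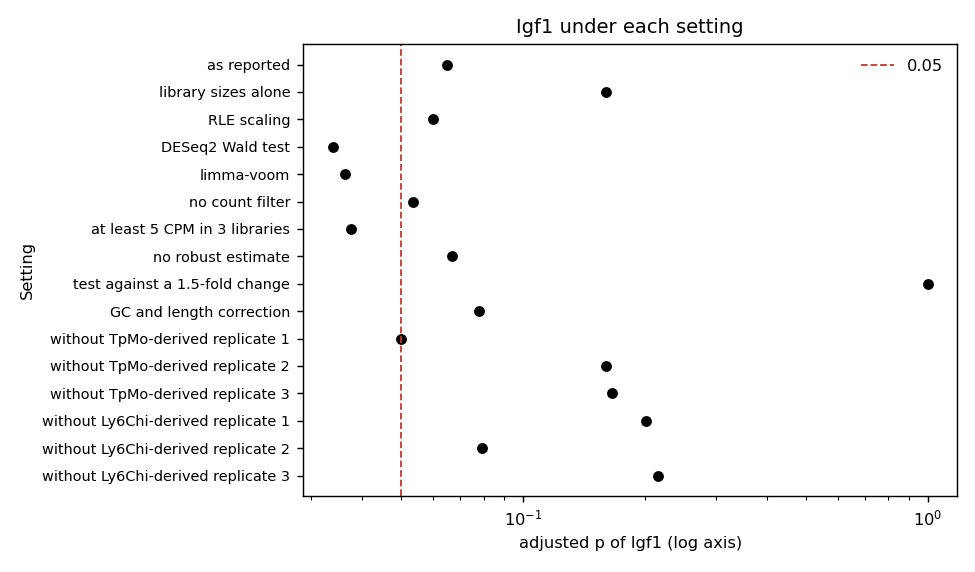
Adjusted p of Igf1 (log axis) as reported and under each of 15 alternative settings, 1 point per setting, with the threshold of 0.05 as a dashed line. The points of DESeq2, limma-voom and the filter of at least 5 CPM lie left of the line; the point without TpMo-derived replicate 1 lies on it, at 0.0501.

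Igf1 alone made up 83.0 to 88.1% of the counts of the 10 genes in each library, and the 10 genes together 0.150 to 0.179% of all counts. Igf1 has the most exon bases of the 10, 9904 against at most 5089, so its share of counts exceeds its share per kilobase. The table counts reads per gene, so the alternative leader and E-domain forms of Igf1 cannot be separated. Its RefSeq start on GRCm38.p6 is preceded by the window below, shown because Igf1 was the most abundant factor and because its window was among those of the members with no GC box (capitals would mark the letters GGGCGG or CCGCCC). The window lies inside the gene as counted, which begins at 87858265, so the table also counts exon bases before it.
Igf1, chr10:87860861-87861110, plus strand: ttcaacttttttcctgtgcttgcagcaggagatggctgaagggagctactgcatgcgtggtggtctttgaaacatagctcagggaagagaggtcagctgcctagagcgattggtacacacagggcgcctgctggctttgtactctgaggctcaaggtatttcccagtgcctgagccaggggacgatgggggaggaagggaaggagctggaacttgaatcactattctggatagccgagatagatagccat
The window held 5 CpG dinucleotides at 52.8% G and C, against medians of 6 and 52.4% over the 32851 windows of 250 bases in the RefSeq table.

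The receptor and binding protein genes of IGF1 were measured in the same libraries. Of 16 genes on that list, 7 were tested, 1 rose, 0 fell and 6 did not pass. Igfbp4, which encodes a binding protein that sequesters IGF1, stood at 180, 174 and 187 CPM in TpMo-derived and at 129.9, 108 and 110.5 CPM in Ly6Chi-derived macrophages, and rose (edgeR, adjusted p = 0.00167) by 0.63 ± 0.09 (SE) on the log2 scale. The IGF1 receptor Igf1r stood at 6.80 ± 0.679 CPM against 7.57 ± 2.00 CPM, and the insulin receptor Insr at 10.4 ± 1.30 CPM against 11.9 ± 2.14 CPM; neither passed. Igf2r, the receptor that clears IGF2, stood at 171 ± 9.29 CPM against 147 ± 1.28 CPM, with no overlap; edgeR made no call (adjusted p = 0.105), whereas DESeq2 did (adjusted p = 0.0393). Of the other 9 genes on the list, 7 had no count in any library.

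VEGF ligands drive the growth of blood vessels (VEGFA), support vessel survival and lipid transport (VEGFB) and drive lymphatic growth (VEGFC). All were low in these macrophages. Vegfc (ENSMUSG00000031520.6, chromosome 8, 54077606 to 54187096) had 0 counts in all 6 libraries, which allows levels up to 3 counts, or 0.0921 to 0.130 CPM depending on the library. That limit treats counts as independent and is on the low side, because both mates of a read pair were counted. Vegfa (ENSMUSG00000023951.17, chromosome 17, 46016993 to 46032369) had 54, 38 and 60 counts in TpMo-derived and 14, 36 and 10 counts in Ly6Chi-derived libraries, or 1.66, 1.41 and 2.60 CPM against 0.508, 1.32 and 0.311 CPM. The groups did not overlap, but Ly6Chi-derived replicate 2 came close to the TpMo-derived libraries. The means were 1.89 ± 0.630 CPM and 0.712 ± 0.533 CPM (SD, n = 3). The log2 fold change was 1.41 ± 0.78 (SE, adjusted p = 0.322, edgeR), with a 95% interval from -0.34 to 3.15. It was 1.04 without Ly6Chi-derived replicate 3 and 2.19 without Ly6Chi-derived replicate 2, the extremes with a library left out, and neither was a call. Vegfa met the count filter, which asks for any 3 libraries whatever their group, in all 3 TpMo-derived but only 2 of 3 Ly6Chi-derived libraries. The libraries of the group where it was higher were thus enough for it to be tested, and the Ly6Chi-derived ones alone were not.

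Vegfb (ENSMUSG00000024962.13, chromosome 19, 6982473 to 6987651) leaned the opposite way. It had 22, 20 and 34 counts in TpMo-derived and 45, 74 and 30 counts in Ly6Chi-derived libraries, or 0.675, 0.743 and 1.48 CPM against 1.63, 2.71 and 0.933 CPM. The groups overlapped, since TpMo-derived replicate 3 exceeded Ly6Chi-derived replicate 3. The log2 fold change was -0.87 ± 0.73 (SE, adjusted p = 0.545, edgeR), with a 95% interval from -2.48 to 0.75, and its size depended on single libraries: it was -0.42 without Ly6Chi-derived replicate 2 and -1.31 without TpMo-derived replicate 3.

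The 2 VEGF transcripts can also be set against each other within a library, which needs no scaling between libraries. This share was chosen after both were seen to lean opposite ways, a choice that itself favours a separation, so it is a description with no test and supports no difference between the groups. Vegfa made up 71.1%, 65.5% and 63.8% of the summed Vegfa and Vegfb counts in TpMo-derived libraries, and 23.7%, 32.7% and 25.0% in Ly6Chi-derived libraries. The means were 66.8 ± 3.78% and 27.2 ± 4.87% (SD, n = 3). The exact 95% binomial (Clopper-Pearson) interval of the lowest TpMo-derived share, in replicate 3, was 53.3 to 73.5%, and that of the highest Ly6Chi-derived share, in replicate 2, was 24.1 to 42.3%. These intervals cover counting error only, not the spread between libraries, and are on the narrow side, because both mates of a read pair were counted. Per kilobase of exon, Vegfa stayed below Vegfb in every library, with a log2 ratio of -0.40 ± 0.25 in TpMo-derived and -2.85 ± 0.35 in Ly6Chi-derived macrophages. These ratios rest on 40 to 110 counts of both genes together per library.

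**Figure D3:**
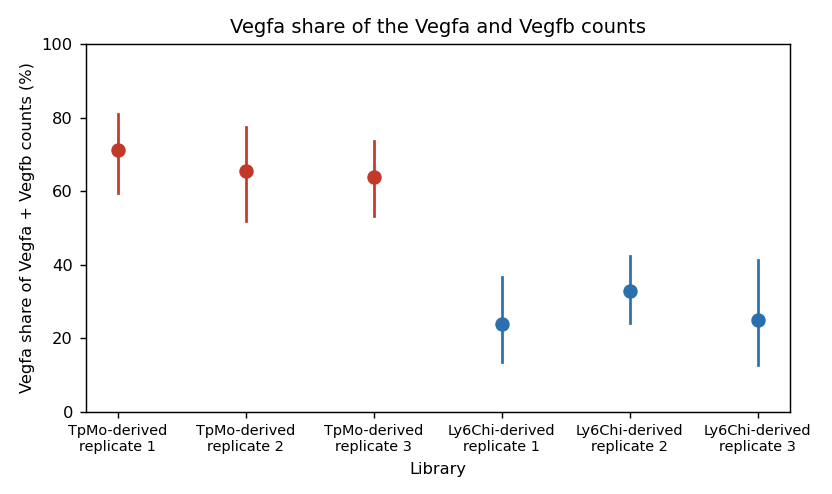
Share of Vegfa in the summed Vegfa and Vegfb counts of each library, in percent, with exact 95% binomial intervals as bars (red, TpMo-derived; blue, Ly6Chi-derived). The 3 TpMo-derived libraries sit between 63.8 and 71.1%, and the 3 Ly6Chi-derived libraries between 23.7 and 32.7%.

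The windows of 250 bases before the RefSeq starts of these 2 genes (GRCm38.p6, for Vegfa the outermost of the 2 starts listed) are shown because their transcripts leaned opposite ways, with GC boxes (GGGCGG, or CCGCCC on the other strand) in capitals.
Vegfa, chr17:46032378-46032627, minus strand: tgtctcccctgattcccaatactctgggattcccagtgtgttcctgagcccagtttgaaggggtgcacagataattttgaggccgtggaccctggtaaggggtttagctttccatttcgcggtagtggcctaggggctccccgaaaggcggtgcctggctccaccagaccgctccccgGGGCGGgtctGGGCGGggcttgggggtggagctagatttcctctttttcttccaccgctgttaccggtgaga
Vegfb, chr19:6987652-6987901, minus strand: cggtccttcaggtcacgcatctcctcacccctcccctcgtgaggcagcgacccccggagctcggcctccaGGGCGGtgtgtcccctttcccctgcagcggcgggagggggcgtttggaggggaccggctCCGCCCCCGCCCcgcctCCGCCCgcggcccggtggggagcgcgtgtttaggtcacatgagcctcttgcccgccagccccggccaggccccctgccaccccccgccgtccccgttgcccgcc
The Vegfa window held 2 GC boxes and 11 CpG dinucleotides, and the Vegfb window 4, of which 2 adjoin, and 26. Windows of 8 of the 10 factors were searched, with 10 starts in all, and none of Hbegf or Pdgfb was included. GC boxes were found in 8 of those 10 windows and in 32.7% of all 32851 windows, and the 2 without any were those of Igf1 and Pdgfc. The core letters bound by hypoxia-inducible factors, ACGTG on either strand, were found in 1 of the 10, at the inner start of Vegfa, and in 16.6% of all windows. An AP-1 site (TGACTCA) and a TATA box (TATAAA) were found in 0 of the 10, and in 4.46% and 12.4% of all windows. These matches describe the letters only.

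The receptors and relatives of the VEGF and PDGF ligands were few in these cells. Of 14 genes on the list, 4 were tested, all of them VEGF receptors or co-receptors; 1 rose, 0 fell and 3 did not pass. Neuropilin 1 (Nrp1), a co-receptor that binds VEGFA, rose by 0.71 ± 0.07 (SE) on the log2 scale (edgeR, adjusted p = 1.64e-04), with 904 ± 75.2 CPM in TpMo-derived and 551 ± 28.5 CPM in Ly6Chi-derived macrophages. Its relative Nrp2, a co-receptor for VEGFC, had means of 735 ± 22.7 CPM against 654 ± 34.7 CPM, with groups that did not overlap but no call (adjusted p = 0.111). Kdr, the main signalling receptor of VEGFA, stood at 28.6, 28.4 and 32.9 CPM against 23.9, 7.503 and 12.7 CPM (log2 fold change 1.03 ± 0.34 SE), again without overlap and without a call by edgeR (adjusted p = 0.0878). DESeq2 and limma-voom called it, and it passed in edgeR with the filter of at least 5 CPM (adjusted p = 0.0409). It also passed without Ly6Chi-derived replicate 1, its highest Ly6Chi-derived library, where the log2 fold change was 1.56 (edgeR, adjusted p = 0.0112). These were the only 4 calls among 15 alternatives, over which the log2 fold change of Kdr ranged from 0.70 to 1.56. Of 8 endothelial markers, which include Kdr, Tek and Emcn were at 0 counts and Vwf fell, with 20.5 ± 6.70 CPM against 52.6 ± 7.82 CPM (adjusted p = 0.00351). Pecam1 stood at 0.880 ± 0.252 CPM against 0.0207 ± 0.0359 CPM (edgeR, adjusted p = 0.0356), on 77 counts in all. Its Ly6Chi-derived libraries lay below the count filter. It was thus tested only through the TpMo-derived libraries, where it was higher, and its call supports no difference. Dominated by Kdr and Vwf, the list summed to between 46.6 and 58.0 CPM in TpMo-derived and between 60.9 and 75.9 CPM in Ly6Chi-derived libraries; the part of such cells in the result was not tested. Flt1, a receptor of VEGFA and VEGFB, stood at 3.26 ± 2.97 CPM against 4.18 ± 1.72 CPM. Flt4, the receptor of VEGFC, had 2 counts over all libraries.

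PDGF ligands recruit fibroblasts and pericytes. Pdgfb (ENSMUSG00000000489.7, chromosome 15, 79995874 to 80014977), whose product forms the homodimer PDGF-BB, was the PDGF gene whose groups were apart. It stood at 28.3, 23.7 and 24.6 CPM in TpMo-derived and at 17.4, 22.8 and 19.0 CPM in Ly6Chi-derived libraries. The lowest TpMo-derived value lay just above the highest Ly6Chi-derived one, in replicate 2. The means were 25.5 ± 2.45 CPM and 19.7 ± 2.81 CPM (SD, n = 3), or 1.29-fold with a 95% interval from 0.982 to 1.71. The log2 fold change of 0.37 ± 0.18 (SE) was no call in edgeR (adjusted p = 0.241). Pdgfb is also a platelet product. Among megakaryocyte and platelet markers, Gp9, Gp1bb and Gp6 had no counts, and the list summed to between 118 and 249 CPM in TpMo-derived and between 30.8 and 45.0 CPM in Ly6Chi-derived libraries. Nearly all of that sum was Pf4, a chemokine that macrophages express too, at 197 ± 70.0 CPM against 38.9 ± 7.84 CPM, and its part in the result was not tested.

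Pdgfa (ENSMUSG00000025856.15, chromosome 5, 138976014 to 138997370) showed the least difference of all members. It stood at 13.1, 14.5 and 14.8 CPM in TpMo-derived and at 11.4, 14.5 and 17.7 CPM in Ly6Chi-derived libraries. The TpMo-derived values fell inside the range of the Ly6Chi-derived ones. The log2 fold change was -0.04 ± 0.22 (SE, adjusted p = 0.944, edgeR), and its 95% interval, from -0.54 to 0.45, lies within a 1.5-fold change in either direction. Its sign turned when TpMo-derived replicate 1 or, instead, Ly6Chi-derived replicate 3 was left out (0.0063 and 0.12). Of the 3119 exon bases of Pdgfa, 813 (26.1%) also belong to the antisense gene 6330403L08Rik. Reads over several genes were left out and strand was ignored, so reads on the shared bases could not be assigned to either gene. The level of Pdgfa is therefore understated by an unknown amount. That antisense gene had 426 counts in all, 2.42 ± 1.22 CPM against 2.40 ± 1.82 CPM.

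Pdgfc (ENSMUSG00000028019.9, chromosome 3, 81036416 to 81214040), whose product needs cleavage of a CUB domain to signal, was set by a single library. It stood at 5.56, 0.668 and 1.30 CPM in TpMo-derived and at 1.34, 2.05 and 1.31 CPM in Ly6Chi-derived libraries. TpMo-derived replicate 1 held 181 of the 229 counts of its group. The log2 fold change was 0.68 ± 0.77 (SE, adjusted p = 0.673, edgeR) and turned to -0.67 without that library. The receptors that PDGF ligands bind, Pdgfra and Pdgfrb, had 0 counts in all 6 libraries.

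HB-EGF is made as a membrane-bound precursor of the EGF family and is released by metalloproteases such as ADAM17. Hbegf (ENSMUSG00000024486.6, chromosome 18) stood at 6.57, 3.49 and 4.95 CPM in TpMo-derived and at 4.50, 4.10 and 2.74 CPM in Ly6Chi-derived libraries. The groups overlapped, and both the highest and the second lowest value were TpMo-derived. The means were 5.00 ± 1.54 CPM and 3.78 ± 0.926 CPM (SD, n = 3), and the log2 fold change was 0.41 ± 0.38 (SE, adjusted p = 0.599, edgeR), or 0.16 without TpMo-derived replicate 1. Of 20 EGF family ligands, receptors and processing genes, 10 were tested, 1 rose, 1 fell and 8 did not pass. The sheddase Adam17 rose by 0.40 ± 0.08 (SE) on the log2 scale (edgeR, adjusted p = 0.00744), with 367 ± 10.9 CPM against 278 ± 24.3 CPM. Cd9, a tetraspanin known to bind the HB-EGF precursor, fell, with 473 ± 65.2 CPM against 594 ± 34.6 CPM, a change of -0.33 ± 0.10 (SE) on the log2 scale (edgeR, adjusted p = 0.0493). That call was lost when any library except TpMo-derived replicate 2 was left out (adjusted p up to 0.160), and without the robust estimate (adjusted p = 0.0541). The sheddase Adam10 stood at 318 ± 14.5 CPM against 365 ± 30.5 CPM (adjusted p = 0.135). Egfr and Erbb4, the receptors of HB-EGF, stood at 0.593 against 0.581 CPM and at 0 counts.

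TGF-beta 1 restrains inflammation and induces matrix genes. Tgfb1 (ENSMUSG00000002603.15, chromosome 7, 25687002 to 25705077) stood at 4.67, 6.53 and 3.25 CPM in TpMo-derived and at 4.90, 4.72 and 2.15 CPM in Ly6Chi-derived libraries. The groups overlapped over most of their range. The log2 fold change was 0.30 ± 0.43 (SE, adjusted p = 0.754, edgeR), and its 95% interval ran from -0.66 to 1.26. It was near 0 without TpMo-derived replicate 2 (0.017) and without Ly6Chi-derived replicate 3 (-3.4e-04), so these libraries set its size.

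Tgfbi, which encodes a matrix protein induced by TGF-beta, was the second most abundant factor per kilobase of exon, above Tgfb1 in every library. Tgfbi (ENSMUSG00000035493.10, chromosome 13, 56609523 to 56639562) stood at 142, 212 and 146 CPM in TpMo-derived and at 185, 183 and 208 CPM in Ly6Chi-derived libraries. TpMo-derived replicates 1 and 3 were below all Ly6Chi-derived libraries and replicate 2 was above them. The means were 166 ± 39.2 CPM and 192 ± 13.9 CPM (SD, n = 3), which is -0.21 ± 0.14 (SE) on the log2 scale and no call (edgeR, adjusted p = 0.443). Without TpMo-derived replicate 2 the log2 fold change was -0.42 and passed (adjusted p = 0.0206), the only such call among the members when a library was left out.

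Genes that store, activate and receive TGF-beta 1 were called in both directions. Of 22 genes for ligands, activators and receptors, 16 were tested, 2 rose, 2 fell and 12 did not pass. Nrros, which anchors latent TGF-beta 1 on myeloid cells, rose by 0.38 ± 0.05 (SE) on the log2 scale (edgeR, adjusted p = 0.00117), with 793 ± 8.10 CPM against 611 ± 10.2 CPM, and the integrin subunit Itgb1 rose with a log2 fold change of 0.39. The type I receptor Tgfbr1 fell, with 170 ± 12.8 CPM against 240.2 ± 14.6 CPM, a change of -0.50 ± 0.08 (SE) on the log2 scale (edgeR, adjusted p = 0.00353). The type II receptor Tgfbr2 stood at 119 ± 3.02 CPM against 118 ± 10.4 CPM, with a 95% interval of the log2 fold change from -0.21 to 0.21. The integrin subunit Itgb3 fell by 2.11 on the log2 scale, from 23.3 ± 7.49 CPM to 5.37 ± 3.75 CPM. Its call did not hold when TpMo-derived replicate 3, Ly6Chi-derived replicate 1 or Ly6Chi-derived replicate 2 was left out (adjusted p up to 0.0933), or with no count filter (adjusted p = 0.0877). The co-receptor Tgfbr3 had 92 counts in TpMo-derived and 20 in Ly6Chi-derived libraries (adjusted p = 0.493).

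SMAD proteins carry the TGF-beta signal to the nucleus, and Tgfbi is among the genes it induces. Of 18 other SMAD and target genes, 17 were tested, and 5 fell, 0 rose and 12 did not pass. Their median on the log2 scale was -0.36, beside 0.01 over all genes tested. The list mixes SMAD proteins, corepressors such as Skil and target genes, so neither the count nor the median measures TGF-beta signalling. The 5 that fell were the transcriptional repressor Bhlhe40 (-2.10), the inhibitors of differentiation Id2 and Id3 (-0.83 and -0.75), the cell cycle inhibitor Cdkn1a (-0.53) and the SMAD corepressor Skil (-0.47). Skil was no call when TpMo-derived replicate 1, Ly6Chi-derived replicate 2 or Ly6Chi-derived replicate 3 was left out (adjusted p up to 0.0738). These genes also answer to other signals, and the share that fell, like every count on these lists, is to be read beside the 5.79% of all genes tested that fell and the 6.54% that rose.

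**Figure D4:**
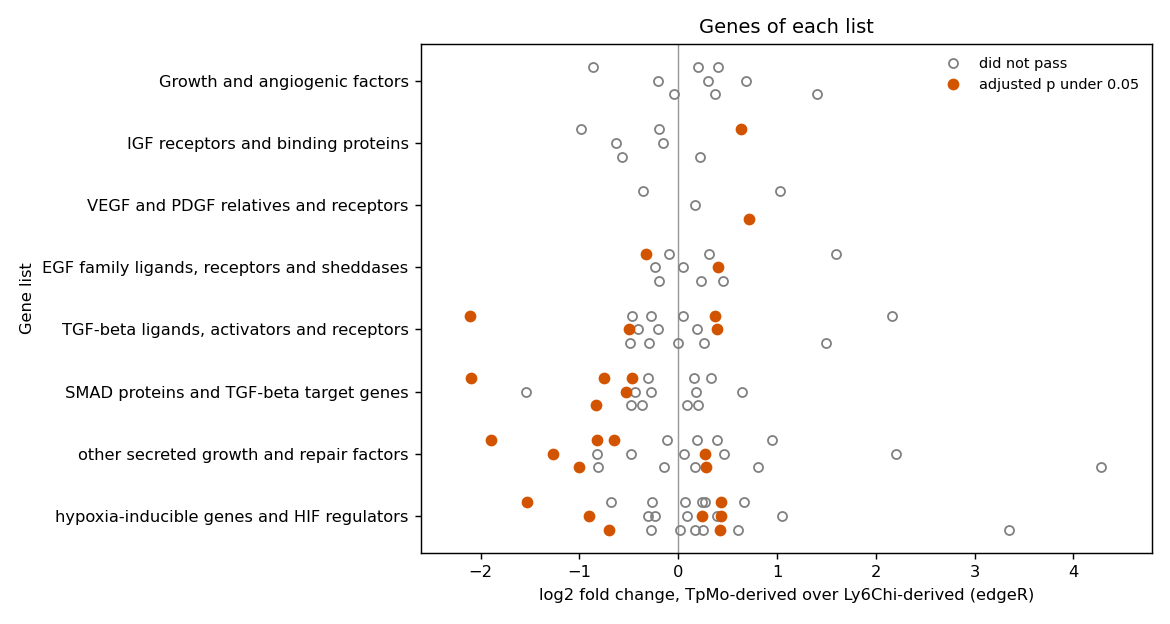
Log2 fold change (TpMo-derived over Ly6Chi-derived) of each tested gene, 1 point per gene and 1 row per list; filled points have an adjusted p under 0.05 and open points did not pass. The 9 growth and angiogenic factors in the top row are all open, and each other list has at least 1 filled point. Filled points are 1 of 7 for IGF receptors and binding proteins and 1 of 4 for VEGF and PDGF receptors. Over all genes tested, 12.3% passed. A 2-fold change lay within the interval for 5 of the 9 factors, so their open points do not show that the groups were alike.

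Calls were made among other secreted growth and repair factors, outside the 10. Of 38 listed, 21 were tested, 2 rose, 5 fell and 14 did not pass. Those that rose were progranulin, Grn, at 2489 ± 57.0 CPM against 2046 ± 102 CPM, and annexin A1, Anxa1, at 2136 ± 56.8 CPM against 1771 ± 88.3 CPM. Those that fell were osteopontin, Spp1, at 9809 ± 1185 CPM against 15373 ± 1355 CPM, Angptl2, Gdf15, the hepatocyte growth factor Hgf, and Tnfsf12, which encodes TWEAK, with log2 fold changes of -0.65, -0.82, -1.005, -1.90 and -1.27. Tnfsf12 was no call when any library except TpMo-derived replicate 3 was left out (adjusted p up to 0.132), and that of Anxa1 without Ly6Chi-derived replicate 3 (adjusted p = 0.0502).

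Hypoxia-inducible genes, the class to which Vegfa belongs, were listed together with regulators of hypoxia-inducible factors, and the list went both ways. All 24 listed were tested, and 3 fell, 4 rose and 17 did not pass. Their median on the log2 scale was 0.21. The glycolytic genes Pgk1 and Ldha, the kinase Pdk1 and the bifunctional enzyme Pfkfb4 rose (0.44, 0.24, 0.43 and 0.42), whereas the mitophagy receptor Bnip3l, the MYC antagonist Mxi1 and Pfkfb3 fell (-0.70, -1.53 and -0.90). The calls of Pdk1 and Pfkfb3 did not hold when TpMo-derived replicate 3 or any Ly6Chi-derived replicate was left out (adjusted p up to 0.0884 and 0.115), nor that of Pfkfb3 with no count filter (adjusted p = 0.110). The call of Pfkfb4 was lost with each of the 6 libraries left out in turn (adjusted p up to 0.141) and with library sizes alone (adjusted p = 0.0741), and that of Ldha without Ly6Chi-derived replicate 3 (adjusted p = 0.0506).

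Levels of different genes can be set beside each other only per length, here as CPM per kilobase of exon. On that scale Igf1 stood at 148 in TpMo-derived and 129 in Ly6Chi-derived macrophages, at percentiles 98.0 and 97.9 of all genes tested. Tgfbi followed, with 44.1 and 50.9. Pdgfb and Pdgfa came next, with 6.14 and 4.53 in TpMo-derived macrophages, where their libraries did not overlap, and with 4.74 and 4.67 in Ly6Chi-derived macrophages, where they did. Hbegf, Tgfb1 and Vegfb stood between 0.601 and 1.10 in both groups, and neighbours in that order overlapped. Vegfb ranked above both Hbegf and Tgfb1 in Ly6Chi-derived macrophages and below both in TpMo-derived macrophages. Pdgfc, with 0.493 and 0.308, and Vegfa, with 0.441 and 0.166, were the lowest of those detected, and their libraries overlapped in both groups. The Vegfa level lay at percentile 14.2 of all genes tested in TpMo-derived and 6.46 in Ly6Chi-derived macrophages.

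The more abundant transcripts were measured with narrower error. The 95% interval of the log2 fold change extended by 0.14 to either side for Igf1, by 0.32 to 0.50 for Tgfbi, Pdgfb and Pdgfa, by 0.85 and 0.96 for Hbegf and Tgfb1, and by 1.62 to 1.74 for Vegfb, Pdgfc and Vegfa. Changes of 2-fold or more in either direction lay outside the interval for 4 factors, Igf1, Tgfbi, Pdgfb and Pdgfa, and within it for the other 5. For Vegfa, Vegfb, Pdgfc, Hbegf and Tgfb1 a 2-fold difference lay within the error of these libraries, and the missing calls do not show that the groups were alike.

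**Figure D5:**
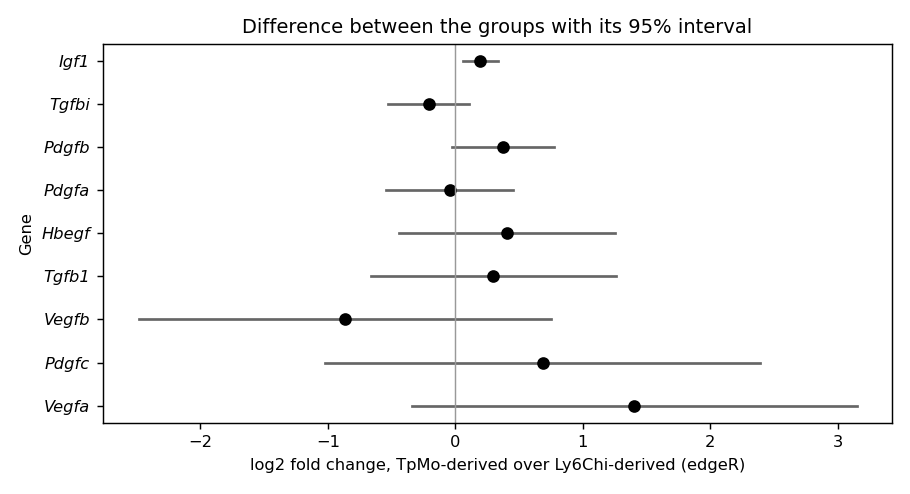
Log2 fold change (TpMo-derived over Ly6Chi-derived, edgeR) of the 9 tested factors, with bars for the 95% interval from the quasi-likelihood test, unadjusted for the number of genes. The bars shorten from Vegfa at the bottom to Igf1 at the top, and that of Igf1, from 0.06 to 0.33, is the only 1 that does not cross 0.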

How the data were processed

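The deposited table holds the authors' unnormalised read counts for each gene in 6 libraries. Per the file header, featureCounts 1.6.3 counted reads over exons of GENCODE M22 with no option for pairs, strand or multiply assigned reads. By that program's defaults, both mates then count, strand is ignored and reads that fall on several genes are left out. STAR and GRCm38 come from the submitters' processing notes, without a version for STAR. Libraries were made by the SMARTSeq v2 protocol, per the labels' protocols. Symbols came from GENCODE M21 (55394 of 55487 identifiers matched), 3 of the listed symbols were matched through newer names, and promoters came from RefSeq (GRCm38.p6).

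Genes passed filterByExpr (minimum count 10, minimum total 15), were scaled by TMM and were tested in R 4.3.3 with the robust quasi-likelihood test of edgeR 4.0.16 with no covariate. Benjamini-Hochberg adjustment ran over 13140 genes, with a threshold of 0.05. Intervals of fold changes used the standard error and degrees of freedom of that test. DESeq2 1.42.0, limma 3.58.1 (voom), 2 other scalings, 2 other filters, a test without the robust estimate, a test against a 1.5-fold change, a correction for GC content and length, and leaving out each library were alternatives. The scripts were tested on simulated data. The labels do not tell whether the replicates are separate cultures or mice. The p-values therefore reflect only the spread between these libraries, which may be technical.

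The members, the lists and the tests were chosen with earlier results of these data known. All members, their receptors, and in each list up to 4 called genes with the smallest p and the 2 with the highest mean CPM were named by rule. Skil, Hgf, Anxa1, Tnfsf12, Pdk1, Pfkfb3 and Pfkfb4 were added to complete counts, and Vwf, Pecam1, Pf4, Pdpn, the macrophage markers and 6330403L08Rik were named after their values were seen. The rule's search for genes most like a changed member had no changed member to start from.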

Additional observations from a re-analysis of the deposited data

How the results depend on the processing

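Of 130 values of the 9 tested factors under 15 alternatives, 122 kept their direction and their side of the threshold. The count of factors called higher went from 0 to 1 (Igf1) with DESeq2, limma-voom and the filter on 5 CPM in 3 libraries, and was 0 in the others. The count called lower was 0 to 1 with a library left out (1 without TpMo-derived replicate 2, Tgfbi) and 0 in the others. With a library left out, the log2 fold change ranged from -0.20 to 0.12 for Pdgfa, from -0.67 to 1.13 for Pdgfc, from -3.4e-04 to 0.51 for Tgfb1, from -0.30 to 0.067 for Igf1r, from -1.39 to 0.072 for Flt1, from -7.01 to 0.62 for Egfr, from -0.071 to 0.045 for Tgfbr2 and from -0.014 to 3.68 for Tgfbr3. Egfr was at -1.34 with limma-voom, and Tgfbr2 at -0.047 with library sizes alone, -0.0046 with no filter and -0.0020 with the filter on 5 CPM. Of all genes tested, 1620 passed, 976 to 1492 with a library left out, fewest without Ly6Chi-derived replicate 2, and 317 in the test against a 1.5-fold change. That test left 0 of 1 calls among IGF receptors and binding proteins, 0 of 1 among VEGF and PDGF receptors, 0 of 2 in the EGF family, 0 of 4 among TGF-beta genes, 1 of 5 among SMAD and target genes, 2 of 7 among other secreted factors and 1 of 7 among hypoxia-inducible genes. DESeq2 called 2 IGF, 3 VEGF and PDGF and 4 EGF family genes. The VEGF and PDGF list had 2 calls with limma-voom, with no filter and with the filter on 5 CPM, and 1 to 2 with a library left out. The EGF family list had 4 calls with the filter on 5 CPM and with the correction for GC content and length, 1 without the robust estimate, and 1 to 2 with a library left out. The hypoxia list had 3 to 7 calls with a library left out. Vegfa, Vegfb, Pdgfc, Hbegf and Tgfb1 gave no value under the filter on 5 CPM, and the cause of the other shifts was not tested. No paired analysis was possible because the labels carry no replicate numbers. Error limits 5 factors most: a 2-fold change lies within their intervals.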
